A study of Mus musculus with 19 samples.

Results

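The 10 genes described here encode the circadian clock and its direct output factors: Arntl, Npas2, Clock, Per2, Per3, Nr1d2, Ciart, Dbp, Tef and Hlf. They were chosen by name, as rows of the gene table, and all 10 are among its 14707 genes and passed the filter on low values (a mean of at least 10), as did 13367 genes in all. RNA was sequenced from gastrocnemius, the calf muscle, of male mice of the strain spelled C657Bl/6J in the labels, which name no transgene, deletion or drug in any group. The 4 groups cross age and diet. Aged obese mice (5 libraries) were 20 to 21 months old on a high-fat diet, in which fat supplied 60% of the calories. Aged lean mice (5 libraries) were of the same age range on a lean diet, in which fat supplied 12%. Young obese mice (5 libraries) were 6 months old on the high-fat diet, and young lean mice (4 libraries) were 6 months old on the lean diet. The series' design text names tibialis anterior, and 21 to 24 months for the aged mice, where the sample labels name gastrocnemius and the ages above; the sample labels were followed. Whether each library is a separate mouse is not stated, so the p-values reflect variation among the libraries, which may be technical in part.

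The circadian clock is a feedback loop of transcription that runs in nearly every cell, muscle fibres included. ARNTL (BMAL1) pairs with CLOCK or its relative NPAS2 and activates genes through E-box sequences, among them the Per and Cry genes, Nr1d1 and Nr1d2, Ciart and Dbp. PER and CRY proteins and CIART then restrain that pair, while NR1D1 and NR1D2 (REV-ERB alpha and beta) repress Arntl and Npas2 through ROR elements, at which the ROR receptors activate. DBP, TEF and HLF are related bZIP factors that carry the rhythm on through D-box sequences. Transcripts of the activating arm and of the arm it drives peak at different times of day in mouse tissues. The sources used here give no hour of tissue collection, so a difference in level and a difference in the hour of sampling cannot be told apart.

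Values are the authors' normalized gene values, and the libraries were of similar estimated depth, at 15.1 to 17.9 M reads. The 9 muscle fibre markers summed to 2242621 to 3059279 over the 19 libraries, which marks skeletal muscle but does not tell gastrocnemius from other limb muscles. Young lean 1 stood apart from the 3 other young lean libraries in several clock genes. Its Ciart value was 13.6 against 129 to 139 in the others, and its Nr1d2 value was 1892 against 2477 to 2570. Results are therefore given with this library and, where a call depends on it, without it. It was picked out by its values in these same genes, so calls gained without it are not separate support.

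Differences were tested with limma on log2(value + 1) over all 19 libraries, and a gene counts as called at a Benjamini-Hochberg adjusted p under 0.05 over the 13367 genes. On the high-fat diet in young mice, Arntl and Npas2 rose and Per3 fell, the 3 of 10 clock genes called, where 11.0% of all tested genes were called. In aged mice the same diet gave no call among the 10, where 0.292% of all genes were called. The fitted difference had the opposite sign to that in young mice in 8 of the 10 (9 without young lean 1). The share of all genes with opposite signs was not worked out. The largest differences in aged mice were those of Ciart and Dbp, 1.63 and 1.37 higher on the log2 scale in aged obese than in aged lean mice. The difference between the 2 diet effects was itself called for Arntl and Per3. As these are bulk samples, fewer cells of a type and less RNA per cell cannot be told apart.

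Arntl, the obligate partner in the activating pair, was highest on average in aged lean and young obese libraries and lowest in young lean libraries, with aged obese libraries between. Its values were 311, 389, 420, 283 and 325 in aged obese libraries and 315, 621, 458, 531 and 466 in aged lean libraries. They were 526, 479, 474, 398 and 357 in young obese libraries and 349, 222, 289 and 201 in young lean libraries. All 5 young obese values lay above all 4 young lean values, while the aged groups overlapped. Means were 345 ± 56.8 (SD, n = 5) in aged obese, 478 ± 112 (n = 5) in aged lean, 447 ± 67.7 (n = 5) in young obese and 266 ± 67.4 (n = 4) in young lean libraries. On the log2 scale, aged lean and young obese means were 0.08 apart, under the within-group SD of 0.30, and each other step in the order was larger than that SD.

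Arntl rose by 0.77 (log2, SE 0.18, adjusted p = 0.0135) on the high-fat diet in young mice, a 1.70-fold difference. It rose by 0.85 (SE 0.18, adjusted p = 0.0138) with age on the lean diet, a 1.80-fold difference. In aged mice the diet difference was -0.45 (SE 0.17, adjusted p = 0.326), and on the high-fat diet the age difference was -0.37 (adjusted p = 0.176). The interaction, that is the diet effect in the aged less the one in the young, was -1.22 (SE 0.25, adjusted p = 0.0200). The call for diet in young mice was lost without young lean 2 (adjusted p = 0.0506, within a range of 0.00276 to 0.342 over 31 alternatives). The age and interaction calls held in each of the 19 runs that left out 1 library.

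Npas2 encodes a CLOCK relative that can take its place beside ARNTL, and its values were low, with a mean of 32.3 over all libraries. Its values were 16.5, 18.8, 41.5, 13.9 and 25.4 in aged obese libraries and 16.3, 45.1, 24.5, 27.4 and 37.5 in aged lean libraries. They were 74.7, 39.3, 74.3, 32.0 and 43.7 in young obese libraries and 33.1, 24.0, 15.2 and 10.7 in young lean libraries. Young obese 1 and 3 were the highest of all, and the young obese and young lean groups overlapped only through young obese 4 (32.0) and young lean 1 (33.1). Npas2 rose by 1.34 (log2, SE 0.37, adjusted p = 0.0268) on the high-fat diet in young mice. With age on the high-fat diet it fell by 1.17 (SE 0.35, adjusted p = 0.0404). The first call was lost without young obese 1 or 3 or young lean 3 or 4 (adjusted p up to 0.0886), and the second without aged obese 1, 2 or 4 or young obese 1, 3 or 5 (adjusted p up to 0.104). Over all 30 alternatives the adjusted p ran from 0.00632 to 0.438 and from 0.0209 to 0.563. The interaction was -1.73 (SE 0.51, adjusted p = 0.0642).

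Clock, the DNA-binding histone acetyltransferase partner of ARNTL, differed little. It ranged from 524 to 789 (median 585) in aged obese, 517 to 679 (median 624) in aged lean, 490 to 753 (median 619) in young obese and 523 to 617 (median 571) in young lean libraries, and all 4 groups overlapped. Its fitted difference was 0.15 (95% interval -0.12 to 0.41) for diet in young mice and 0.03 (-0.22 to 0.28) for diet in aged mice.

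**Figure D1:**
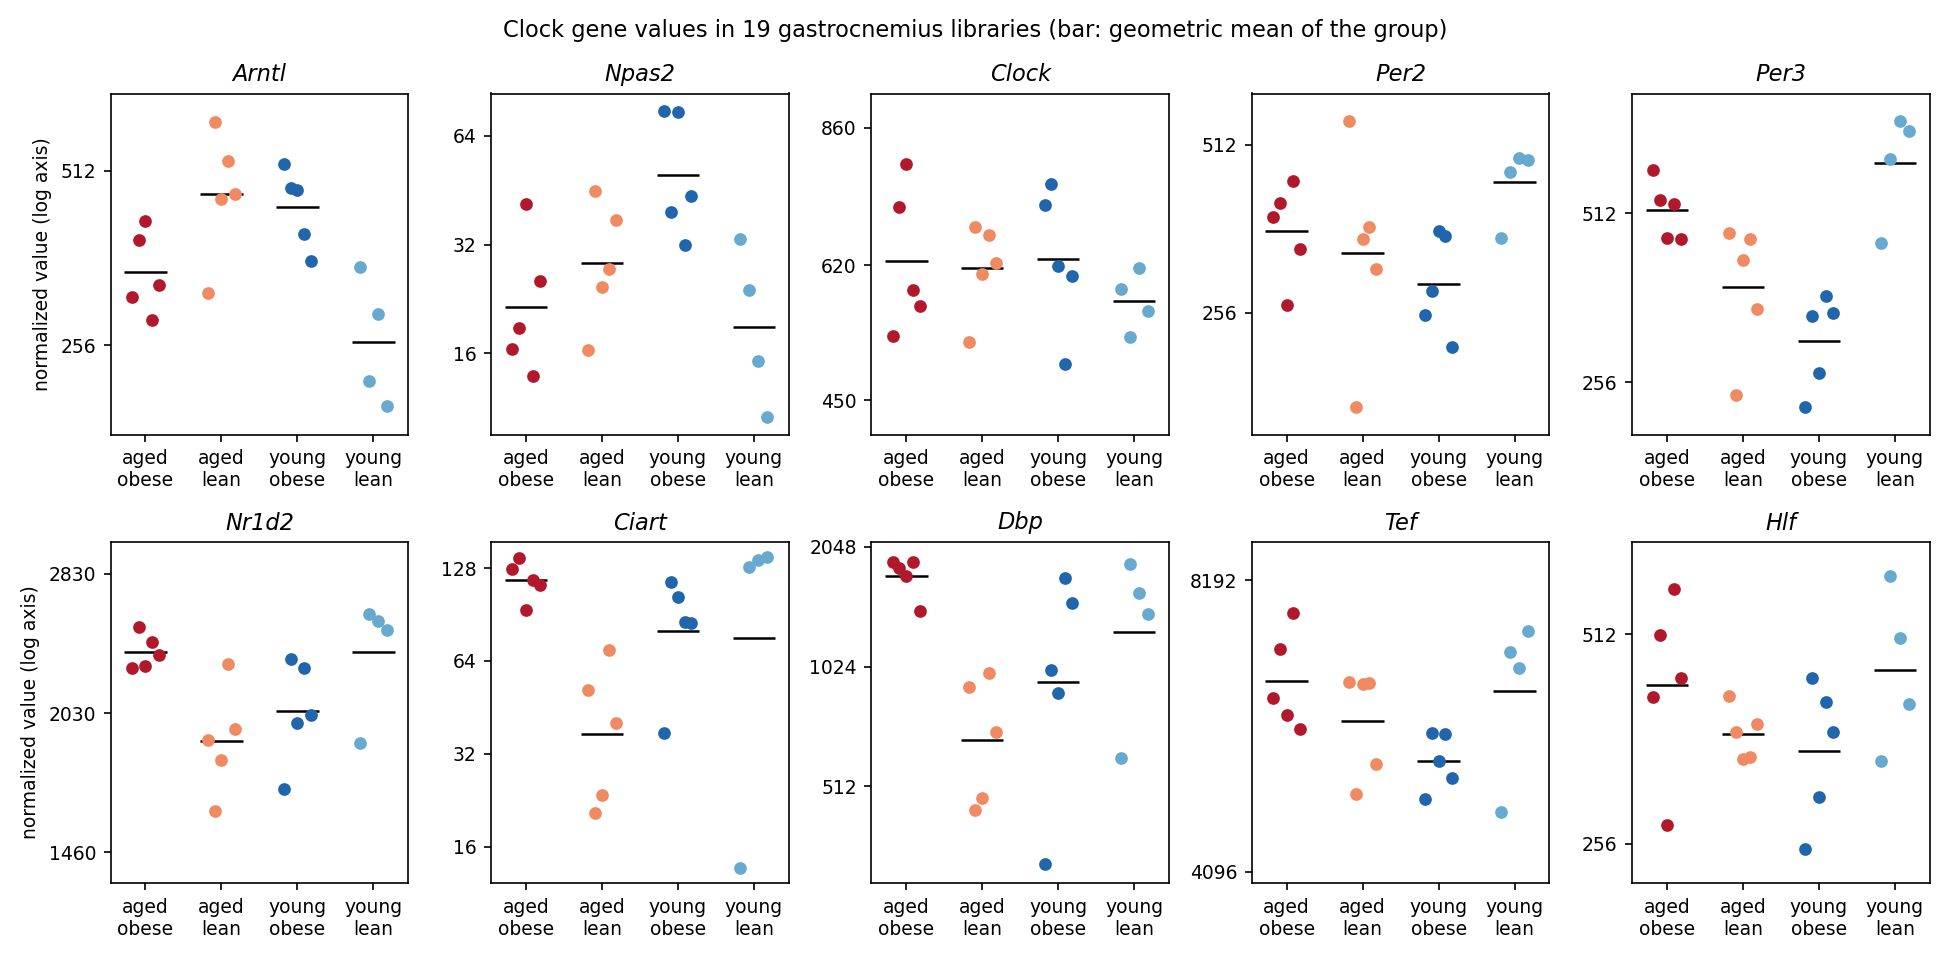
Normalized value (log axis) of each of the 10 clock genes in the 19 libraries, 1 point per library and 1 panel per gene, with a bar at each group's geometric mean and the groups from left to right aged obese, aged lean, young obese and young lean. Arntl and Per3 separate the young obese from the young lean libraries without overlap, and Dbp and Ciart the aged obese from the aged lean libraries.

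Of the genes the ARNTL pair drives, Per3 was called in 4 comparisons. Per3 encodes a period protein that binds PER1, PER2 and the cryptochromes. Its values were 610, 541, 462, 532 and 461 in aged obese libraries and 471, 243, 423, 461 and 346 in aged lean libraries. They were 231, 336, 266, 364 and 340 in young obese libraries and 453, 639, 746 and 718 in young lean libraries. Every young obese value lay below every young lean value and below every aged obese value. Means were 521 ± 62.3 (SD, n = 5) in aged obese, 389 ± 95.2 (n = 5) in aged lean, 307 ± 56.2 (n = 5) in young obese and 639 ± 132 (n = 4) in young lean libraries. In the order of levels, young lean and aged obese were 0.28 apart on the log2 scale, under the within-group SD of 0.30, and the steps down to aged lean (0.45) and young obese (0.32) were larger.

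Per3 fell by 1.05 (log2, SE 0.18, adjusted p = 0.00321) on the high-fat diet in young mice, a 2.07-fold difference. It fell by 0.73 (SE 0.18, adjusted p = 0.0305) with age on the lean diet and rose by 0.77 (SE 0.17, adjusted p = 0.00998) with age on the high-fat diet. The diet difference in aged mice was 0.45 (SE 0.17, adjusted p = 0.323), and the interaction was 1.50 (SE 0.25, adjusted p = 0.00859). The call with age on the lean diet was lost without aged lean 2 or 5 or young lean 2, 3 or 4 (adjusted p up to 0.0960, within 0.00303 to 0.118 over 31 alternatives). The 3 other calls held in each of the 19 runs without 1 library. Per3 overlaps Camta1 on the same strand in the GENCODE M21 annotation, and how reads common to both were counted is not given.

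Per2, the period protein at the core of the repressive complex with the cryptochromes, was not called in any comparison. It ranged from 265 to 442 (median 380) in aged obese, 174 to 565 (median 347) in aged lean, 222 to 359 (median 280) in young obese and 348 to 484 (median 470) in young lean libraries. The young groups overlapped only slightly, through young obese 3 and 4 (359 and 352) and young lean 1 (348). The fitted diet difference in young mice was -0.61 (SE 0.24, adjusted p = 0.102), and it was called without aged lean 2 (adjusted p = 0.0438, within 0.0397 to 0.613 over 31 alternatives). Nr1d2, the REV-ERB beta receptor, ranged from 2261 to 2491 in aged obese, 1610 to 2286 in aged lean, 1698 to 2312 in young obese and 1892 to 2570 in young lean libraries. Its interaction was 0.51 (SE 0.14, adjusted p = 0.0579), and it was called without aged lean 4, young obese 2 or young lean 1 (0.61 without the last).

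Ciart encodes CHRONO, a repressor that binds the ARNTL pair. Its values were 128, 138, 93.9, 118 and 113 in aged obese libraries and 51.7, 20.6, 23.5, 69.4 and 40.4 in aged lean libraries. They were 37.3, 116, 103, 85.7 and 85.3 in young obese libraries and 13.6, 129, 136 and 139 in young lean libraries. The aged obese values all lay above the aged lean values, and 3 of 4 young lean values lay above every young obese value, with young lean 1 below them all. The diet difference in aged mice was 1.63 (log2, SE 0.50, adjusted p = 0.194), a 3.09-fold difference of fitted means. Young lean 1 is in neither aged group but widens the pooled spread. Without it the same difference of 1.63 had an SE of 0.30 and was called, where 0.524% of all genes were. The limma adjusted p was then 0.0156, within 0.0135 to 0.390 over 31 alternatives. Young lean 1 was picked out partly by its Ciart value, so the smaller SE follows from the choice. Ciart overlaps C920021L13Rik on the other strand, and whether reads were counted by strand is not given in the sources used here.

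Among the output factors the largest fitted difference was that of Dbp between the diets of aged mice. Dbp, whose product activates D-box genes, had values of 1877, 1814, 1725, 1881 and 1412 in aged obese libraries and 908, 447, 479, 986 and 700 in aged lean libraries. It had 327, 1003, 878, 1714 and 1478 in young obese libraries and 602, 1854, 1572 and 1385 in young lean libraries. No aged lean value reached the lowest aged obese value, while the young groups overlapped widely. Means were 1742 ± 195 (SD, n = 5) in aged obese, 704 ± 244 (n = 5) in aged lean, 1080 ± 542 (n = 5) in young obese and 1353 ± 537 (n = 4) in young lean libraries. The highest library was 1.33 times the lowest in the aged obese group, against 5.24 times in the young obese group. The diet difference in aged mice was 1.37 (log2, SE 0.36, adjusted p = 0.127), and the interaction was 1.78 (SE 0.53, adjusted p = 0.0657). The diet difference was called without young obese 1 (1.37, adjusted p = 0.0431, within 0.00959 to 0.272 over 31 alternatives), where 0.284% of all genes were. Dbp overlaps Sphk2 on the other strand.

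Tef and Hlf, the relatives of Dbp, were not called in any comparison. Tef ranged from 5750 to 7574 in aged obese, 4933 to 6430 in aged lean, 4877 to 5694 in young obese and 4726 to 7267 in young lean libraries. All aged obese values of Tef lay above all young obese values, with a fitted age difference of 0.27 (SE 0.11, adjusted p = 0.120) that was called without young lean 1 (0.27, SE 0.09). Hlf ranged from 273 to 594 in aged obese, 339 to 417 in aged lean, 252 to 444 in young obese and 337 to 621 in young lean libraries, and every pair of groups overlapped.

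Promoter windows of 3 of these genes are shown because they hold the 3 elements of the loop: E-boxes in Ciart, D-boxes in Per3 and a ROR element in Arntl. The windows are from RefSeq (build GRCm38.p6, not the mm39 build of the files), run 5′ to 3′ on the gene's strand from 250 bases before to 50 after the annotated start, and carry the matches in capitals. Ciart is at chr3:95882179-95882478 (minus strand), Per3 at chr4:151044616-151044915 (minus strand) and Arntl at chr7:113207261-113207560 (plus strand).
Ciart: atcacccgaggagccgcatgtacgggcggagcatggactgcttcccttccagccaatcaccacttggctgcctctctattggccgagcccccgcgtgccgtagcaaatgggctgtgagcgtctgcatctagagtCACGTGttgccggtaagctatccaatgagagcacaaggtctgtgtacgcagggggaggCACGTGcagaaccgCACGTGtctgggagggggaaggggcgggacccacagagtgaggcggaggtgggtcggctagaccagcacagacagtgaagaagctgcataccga
Per3: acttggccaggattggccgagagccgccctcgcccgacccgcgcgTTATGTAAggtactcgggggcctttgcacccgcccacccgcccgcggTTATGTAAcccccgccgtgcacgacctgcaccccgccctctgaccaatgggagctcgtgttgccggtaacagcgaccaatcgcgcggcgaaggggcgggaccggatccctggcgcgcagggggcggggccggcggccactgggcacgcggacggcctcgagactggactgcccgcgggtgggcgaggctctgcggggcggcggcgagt
Arntl: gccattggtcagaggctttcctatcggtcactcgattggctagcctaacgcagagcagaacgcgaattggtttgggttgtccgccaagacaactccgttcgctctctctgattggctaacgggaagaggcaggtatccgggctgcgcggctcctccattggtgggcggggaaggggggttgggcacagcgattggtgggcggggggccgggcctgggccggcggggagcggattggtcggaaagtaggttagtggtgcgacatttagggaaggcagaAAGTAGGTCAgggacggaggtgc

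Both strands were searched for the E-box CACGTG, the D-boxes TTATGTAA, TTACGTAA and TTATATAA, and the ROR element, written AANT followed by AGGTCA or GGGTCA, which do not overlap one another in these windows. The Ciart window held 3 E-boxes, at 116, 58 and 44 bases before the start, and E-boxes are in 7.15% of all 32851 RefSeq mouse promoter windows. The Per3 window held 2 D-boxes, at 205 and 158 bases before the start, where 1.59% of windows hold one. The Arntl window held 1 ROR element, 27 bases after the start, where 0.435% hold one. The window of a second annotated Arntl start (chr7:113207215-113207514) ends before this element and held no match. Each of the 2 Tef windows held 1 E-box, and the windows of the other matched genes held no match. In all, 9 of the 10 genes matched a window (13 windows).

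The diet effects in aged and in young mice had opposite signs in 8 of the 10 genes, all but Clock and Ciart. This held for 9 without young lean 1, all but Clock, since the Ciart difference in young mice was then -0.75, against 0.06 with that library. The share of all genes with opposite signs was not worked out. Some of the differences were within their SE, such as that of Per2 in aged mice (0.13, SE 0.22). The interaction was negative in all 3 activators, though for Clock it was within its SE (-0.12, SE 0.17) and was 0.01 with library weights. The interaction was positive in all 7 others. It was called for Arntl (-1.22) and Per3 (1.50), 2 of 10 genes, where 2.98% of all tested genes were called. At an unadjusted p under 0.05 it held 9 of the 10, all but Clock, where 22.9% of all genes did. Of the 14 other core clock genes tested, described below, 5 did. The 10 were chosen with earlier results of these data known and vary together, so the 9 are not separate tests. The median interaction over the 10 was 0.56, against 0.22 over the 14 other core clock genes and 0.00 over all genes tested. As the list holds 7 genes with positive and 3 with negative values, its median depends on that make-up. The medians over the 10 given below depend on it too. Without young lean 1, 7 of the 10 were called (Arntl, Npas2, Per3, Nr1d2, Ciart, Dbp and Tef), where 12.9% of all genes were. Young lean 1 was picked out by values of these same genes. Without young obese 2, 5 were called, with Npas2 (-1.81), Nr1d2 (0.55) and Dbp (1.81) added, where 9.78% of all genes were. With the tendon markers described below as a covariate no gene in the table was called, with Arntl at -1.30 and Per3 at 1.54 (SE 0.35).

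**Figure D2:**
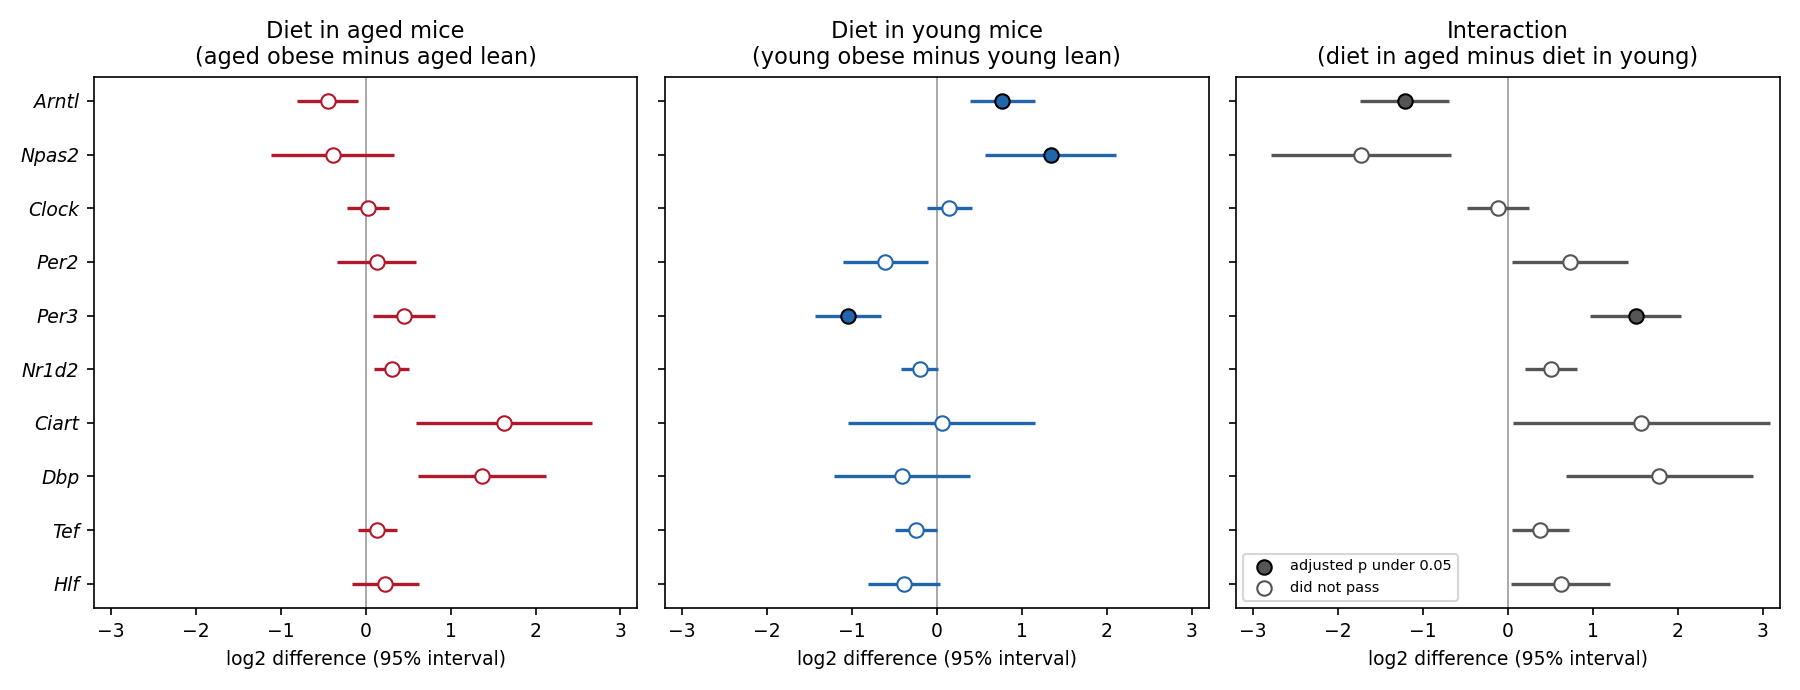
Log2 difference between the high-fat and the lean diet for each clock gene, in panels for aged mice, young mice and the interaction, with unadjusted 95% intervals from limma and filled points where the adjusted p is under 0.05. Per3 lies at 0.45 in aged and -1.05 in young mice, and Arntl at -0.45 in aged and 0.77 in young mice.

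For diet in young mice, the median over the 10 genes was -0.22, against 0.01 over all genes. Arntl was higher and Per3 lower without overlap of the groups, where 7.79% of all genes did not overlap. Without young lean 1, Nr1d2 (-0.30) and Tef (-0.38) were called beside Arntl, Npas2 and Per3, where 20.2% of all genes were called. Tendon markers moved with this comparison: 4 of the 6 rose, and their summed value was 1869 to 4849 in young obese against 518 to 1055 in young lean libraries. Of 7 markers of fibro-adipogenic progenitors, stromal cells that lie between the fibres, 3 rose (summed value 13953 to 20408 in young obese and 10597 to 15322 in young lean libraries). No marker of either list was at 0 in every library. With the mean log2 value of the tendon markers as a covariate, 0 genes were called (0% of all tested), while the Per3 difference was -1.08 (SE 0.28) and the Arntl difference 0.84 (SE 0.28). This covariate was 7.67 to 9.13 in young obese libraries and at most 7.22 in the other groups, so it nearly marks the young obese group. Tendon content and that group can therefore hardly be told apart by this fit. Fitted on the young libraries alone, Per3 was called and Arntl and Npas2 were not, where 1.30% of all genes were.

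For diet in aged mice, none of the 10 was called and 5 had an unadjusted p under 0.05 (Arntl, Per3, Nr1d2, Ciart and Dbp), where 11.4% of all genes had. The median over the 10 was 0.19, against 0.00 over all genes. Ciart and Dbp were higher without overlap of the groups, where 3.68% of all genes did not overlap. Fitted on the aged libraries alone, both were called, where 1.06% of all genes were. None of the 6 tendon, 7 progenitor and 8 macrophage markers was called here. The progenitor markers summed to 11269 to 14089 in aged obese and 15333 to 19163 in aged lean libraries, without overlap, and their part in the result was not tested.

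With age on the lean diet, Arntl rose and Per3 fell, 2 of 10 genes, where 4.08% of all genes were called, and no clock gene separated the groups without overlap (6.46% of all genes did). The median over the 10 was -0.30, against 0.00 over all genes. Without young lean 1, Ciart (-1.83), Dbp (-1.25) and Nr1d2 (-0.41) were called as well, where 9.50% of all genes were. Fitted on these 2 groups alone, none of the 10 was called, where 0.974% of all genes were. No tendon, progenitor or macrophage marker was called in this comparison, and the macrophage markers summed to 2598 to 8414 in aged lean and 1259 to 3634 in young lean libraries.

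With age on the high-fat diet, Per3 rose and Npas2 fell, 2 of 10 genes, where 9.02% of all genes were called, and Per3 and Tef were higher without overlap of the groups, where 8.66% of all genes did not overlap. The median over the 10 was 0.29, against 0.00 over all genes. Of the 6 tendon markers 5 fell (summed value 351 to 1323 in aged obese and 1869 to 4849 in young obese libraries), and 3 of 7 progenitor markers fell. With the tendon markers as a covariate neither clock gene was called, with Per3 at 0.82 (SE 0.31) and Npas2 at -1.18 (SE 0.62), where 0.0898% of all genes were called. This comparison and that of diet in young mice share the young obese libraries, the group that the covariate nearly marks.

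Aged obese and young lean mice, which differ in both factors, gave no call among the 10, where 5.58% of all genes were called, and 1 had an unadjusted p under 0.05 (Arntl, 0.40), where 21.3% of all genes had. None of the 10 separated these 2 groups without overlap, where 8.93% of all genes did. The differences ran from -0.29 (Per2) to 0.60 (Ciart), with 95% intervals of -0.79 to 0.21 and -0.50 to 1.70. Without young lean 1 the Ciart difference was -0.20, and the 10 ran from -0.43 (Per3) to 0.54 (Arntl), with none called. Averaged over diets, age gave no call (8.88% of all genes). None of the 10 had an unadjusted p under 0.05 there, where 3277 of the 13367 genes tested had. Averaged over ages, diet gave no call (3.38% of all genes) and 2 at an unadjusted p under 0.05, Per3 (-0.30) and Ciart (0.84), where 20.2% of all genes had. The averaged Ciart difference was 0.44 without young lean 1.

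Within groups, 8 of the 10 clock genes spread more than the median tested gene, all but Nr1d2 and Tef, though Clock barely so (above 50.8% of genes). The within-group SD of Ciart was 0.88 on the log2 scale, and 98.1% of tested genes had a smaller one. Young lean 1 carried much of it: over the other 18 libraries the SD of Ciart was 0.53, above that of 90.2% of genes. The SDs of Dbp (0.65) and Npas2 (0.59) were above those of 94.4% and 92.6% of genes, while Nr1d2 (0.16) was above 38.4%. These ranks are over tested genes of every level, and Npas2 had low values (mean 32.3). The median SD of the 10 genes was 0.22 in aged obese, 0.38 in aged lean, 0.29 in young obese and 0.34 in young lean libraries. Over all tested genes these medians were 0.16, 0.17, 0.19 and 0.22 in the same groups.

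Within groups the 10 genes varied as 2 opposed arms. With group means removed, over 19 libraries, the 3 activators correlated positively in 3 of 3 pairs (Pearson r 0.51 to 0.73) and the other 7 genes in 21 of 21 pairs (0.39 to 0.87). Each of the 21 pairs across the 2 sets correlated negatively (-0.83 to -0.13). With the 2 libraries farthest out in the activator of each pair left out, 20 of the 21 did, and Clock with Nr1d2 stood at 0.01. Libraries far out only in the other gene stayed in. Npas2 and Per3 had r = -0.83 and Spearman rho = -0.80, and r = -0.83 without the 2 libraries farthest out in Npas2. Dbp and Nr1d2 had r = 0.83, and 0.68 without the 2 farthest out in Nr1d2. These are descriptions, since the values of a pair come from the same library and share its depth and scaling.

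**Figure D3:**
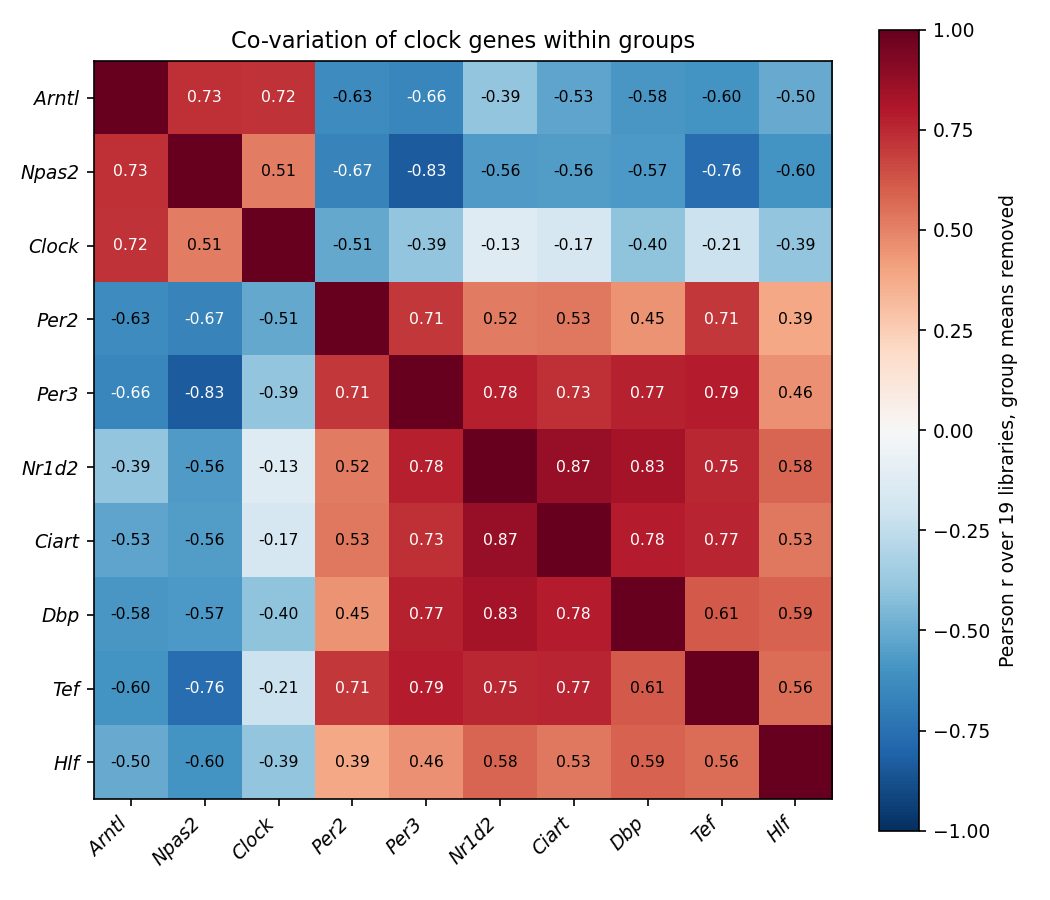
Pearson correlation of each pair of the 10 clock genes over 19 libraries, on log2 values with group means removed. The 3 activators form a positive block (0.51 to 0.73), the other 7 genes a positive block (0.39 to 0.87), and the pairs between them are negative (-0.83 to -0.13).

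In each library, Dbp was set against Arntl as log2 Dbp minus log2 Arntl. This difference was 2.04 to 2.73 in aged obese and -0.47 to 1.53 in aged lean libraries, without overlap, as with Dbp alone. It was -0.68 to 2.10 in young obese and 0.78 to 3.06 in young lean libraries, where young lean 1 was the lowest. The difference serves only to set libraries against each other, since the 2 genes differ in length.

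**Figure D4:**
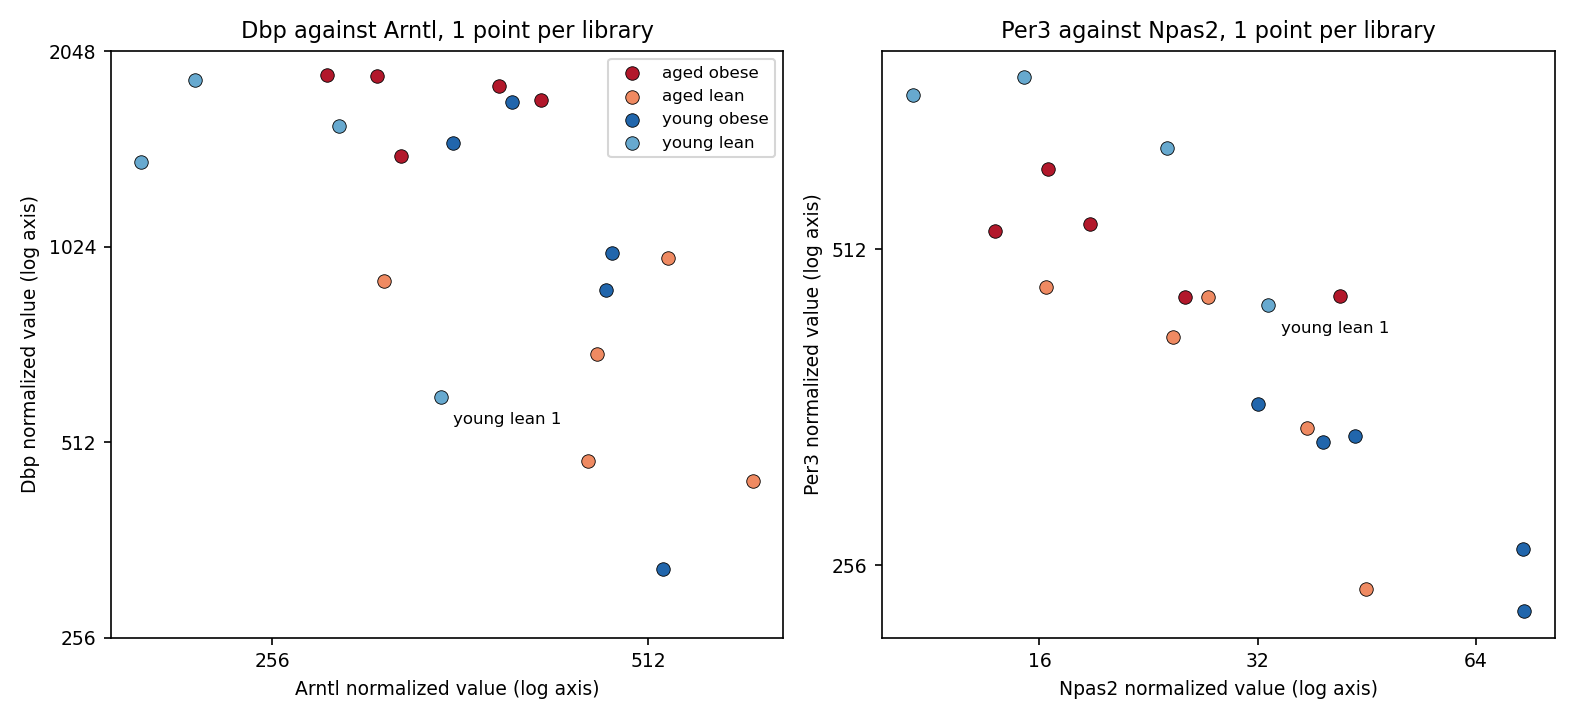
Normalized values (log axes) of Dbp against Arntl and of Per3 against Npas2, 1 point per library, coloured by group. Aged obese libraries have Dbp of 1412 to 1881 and aged lean libraries 447 to 986, and young lean 1 lies away from the other young lean libraries in both panels.

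The wider clock was read from a list of 16 other core genes, 14 of them tested. In young mice on the high-fat diet, Rora, a receptor that activates at ROR elements, fell by 0.76 (adjusted p = 0.0119), and Bhlhe41, an E-box repressor, rose by 0.55 (adjusted p = 0.0346). The other 12 did not pass, and 11.0% of all tested genes were called. None of the 14 passed for diet in aged mice, where 0.292% of all genes did, and 6 had an unadjusted p under 0.05, where 11.4% of all genes had. None passed for age on the lean diet, where 4.08% of all genes did, and 6 had an unadjusted p under 0.05, where 21.0% had. With age on the high-fat diet, Nfil3, a repressor at D-boxes, fell by 1.29 (adjusted p = 0.00379) and Cry2, a cryptochrome, rose by 0.74 (adjusted p = 0.0256), where 9.02% of all genes were called. The interaction was called for Rora (0.93, limma adjusted p = 0.0442), where 2.98% of all genes were. At an unadjusted p under 0.05 it held 5 of the 14, where 22.9% of all genes did. Nfil3 was also lower in aged obese than in young lean mice (-0.94, adjusted p = 0.0444), where 5.58% of all genes were called, and in aged than in young mice averaged over diets (-0.78, adjusted p = 0.0118), where 8.88% were. Per1, Cry1 and Nr1d1 were called in no comparison, and Nr1d1 stood at 0.70 (adjusted p = 0.289) for diet in aged mice. Without young lean 1 the counts were 4 for age on the lean diet, where 9.50% of all genes were called, 5 for age on the high-fat diet (12.5%) and 4 for the interaction (12.9%). The interaction count was 0 in 14 of the 19 runs without 1 library, and that of aged obese against young lean mice was 0 in 8. The count of 2 for diet in young mice was 1 without young obese 4 or 5 or young lean 3 or 4, and that of 2 for age on the high-fat diet was 1 without aged obese 2 or 4 or young obese 1 or 3. With the tendon markers as a covariate the counts for diet in young mice, age on the high-fat diet and the interaction were each 0. In the same order, 0, 0.0898 and 0% of all genes were called there.

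Of 17 genes known as rhythmic outputs in muscle or other tissues, 2 rose on the high-fat diet in young mice: Pdk4 (2.28, adjusted p = 0.000468), a kinase that restrains glucose oxidation, and Ucp3 (1.42, adjusted p = 0.00693), a mitochondrial carrier. Both also respond to fatty acids, and 11.0% of all tested genes were called here. None passed for diet in aged mice, where 0.292% of all genes did, and 3 had an unadjusted p under 0.05, where 11.4% had. With age on the lean diet Nampt, an enzyme of NAD synthesis, fell by 0.34 (adjusted p = 0.00811), as did the deubiquitinase Usp2 (fell by 0.34, adjusted p = 0.0377), 2 of 17 where 4.08% of all genes were called. With age on the high-fat diet Ucp3 (-1.26), Pdk4 (-0.95) and Nampt (-0.21) fell, 3 of 17 where 9.02% of all genes were called. In aged obese against young lean mice Pdk4 was higher (1.33, adjusted p = 0.00900) and Nampt lower (-0.38, adjusted p = 0.00249), where 5.58% of all genes were called. The interaction was called for Pdk4 alone of the 17 (-1.71, adjusted p = 0.0252), where 2.98% of all genes were. That count was 0 without aged lean 5 or young lean 2, and 4 without young lean 1, where 12.9% of all genes were called. Averaged over diets, Nampt (-0.27) and Usp2 (-0.24) fell with age and Cdkn1a (0.96), an inhibitor of the cell cycle, rose, where 8.88% of all genes were called. Averaged over ages, Pdk4 (1.43) and Ucp3 (0.77) rose on the high-fat diet and Myod1 (-0.67), a myogenic transcription factor, fell, where 3.38% of all genes were called. This count of 3 was 1 without aged obese 2 or 5, young obese 1 or young lean 4. Leaving out 1 library gave 1 to 4 calls for age on the lean diet and 1 to 5 for age on the high-fat diet. The most came without young lean 1 in both, where 9.50% and 12.5% of all genes were called. The median over the 17 was 0.06 for diet in young mice and 0.05 for diet in aged mice, against 0.01 and 0.00 over all genes.

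**Figure D5:**
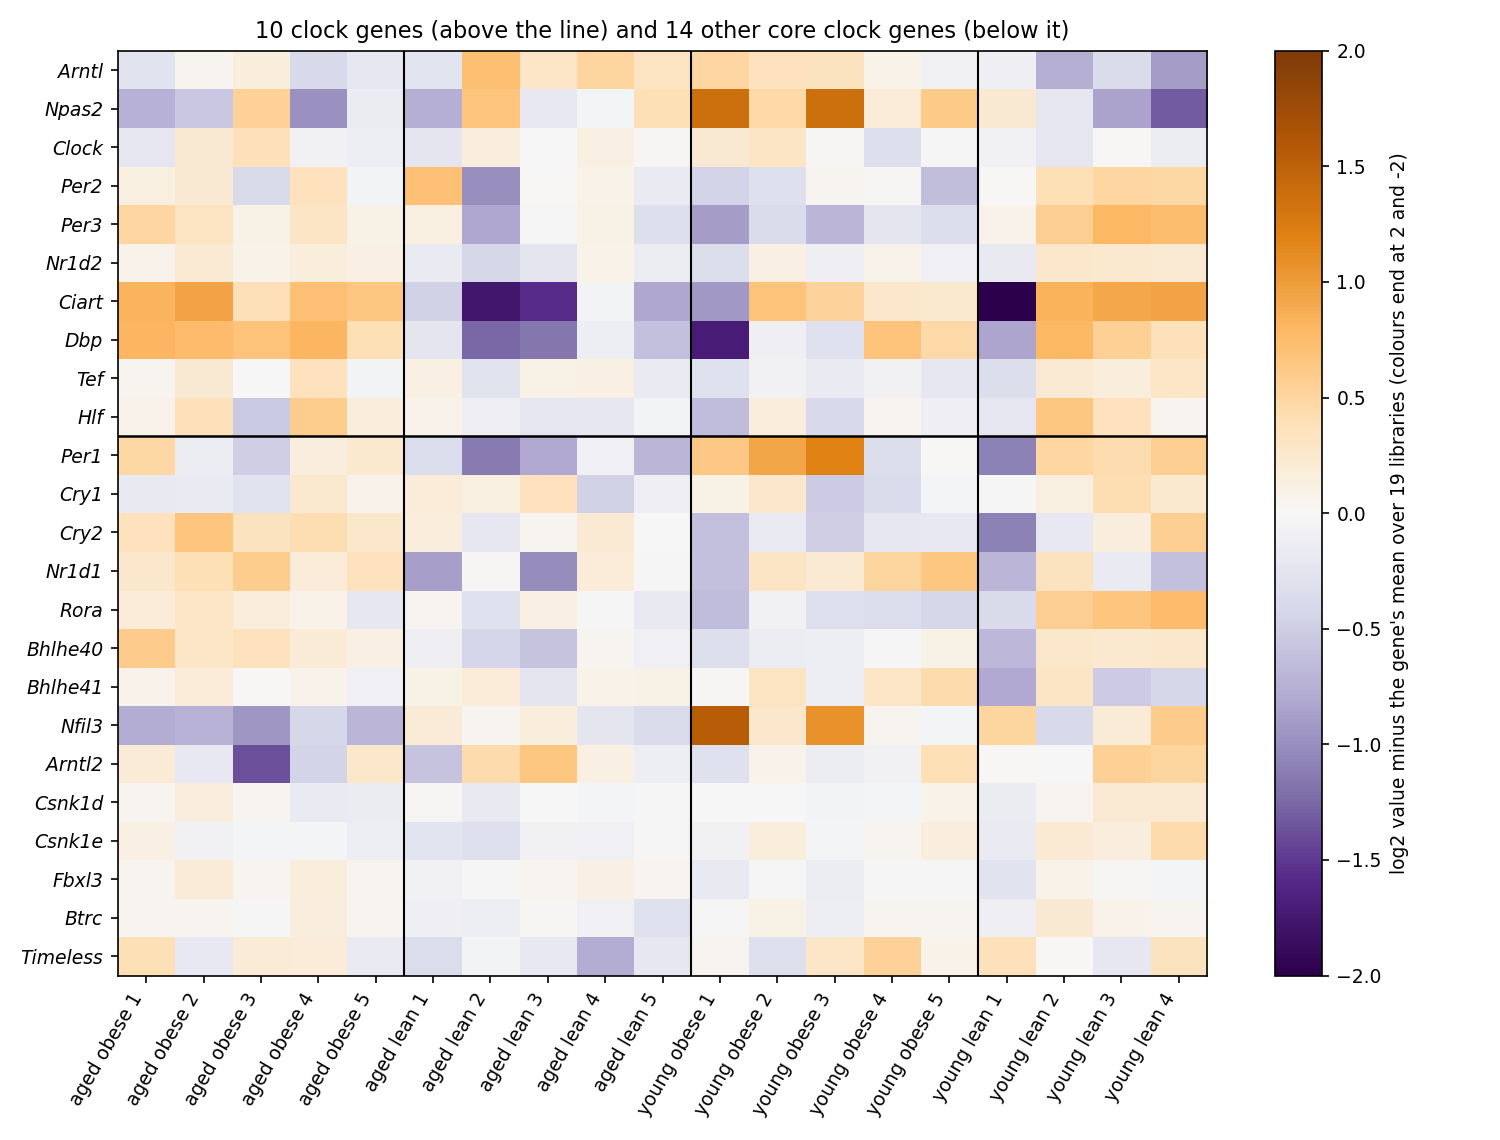
Log2 value of each clock gene and each tested other core clock gene in the 19 libraries, as the difference from the gene's mean over all libraries (orange above it, purple below it, colours ending at 2 and -2), with groups from left to right aged obese, aged lean, young obese and young lean. Ciart in young lean 1 (13.6, against 129 to 139 in the other young lean libraries) is visible as the lowest cell of its row.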

How the data were processed

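RNA-seq values of 14707 genes in 19 libraries were analysed. The authors deposited 1 normalized signal value per gene and library. The submitters' processing notes list STAR 2.78a, DESeq2, Partek and the build mm39 without their roles. The annotation, counting program, strand setting and filters are not given. Totals were 15.4 to 17.7 M per library. With the value of 1 read at 0.903 to 1.09, 85.2 to 86.3% of values up to 200 came to whole reads within 0.02. This missed the required 95%, so counts could not be restored and count models were not used. The depth of 15.1 to 17.9 M reads is an estimate.

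Values were tested as log2(value + 1), a scale that understates the change of low genes, by limma's trend method (version 3.58.1, R 4.3.3, two-sided). All 19 libraries entered 1 model with 4 group means. It had 15 residual and 4.37 prior degrees of freedom. The filter left out 1340 genes with a mean under 10. P-values were adjusted over the 13367 genes tested. Code was tested on simulated data. Summaries were made with Python 3.11.15 (pandas 2.3.3, numpy 2.4.6, scipy 1.17.1) and figures with matplotlib 3.10.9. Replicate numbers follow accession order and pair no libraries.

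The 10 genes, the lists and the tests were chosen with earlier results of these data known. All 10 were named, and listed genes where called in any comparison, with Per1, Cry1, Cry2, Nr1d1 and Rora in any case; 1 other core clock gene is not reported here. Likeness to Arntl and Dbp was ranked among genes with a mean of at least 50, leaving out predicted, Rik and pseudogene symbols. Alternatives covered the pseudocount, filter, scaling, library weights, robust moderation, a tendon covariate, single groups and left-out libraries. The within-group SD and the count of opposite signs without young lean 1 were added after the data were seen.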

Additional observations from a re-analysis of the deposited data

Results flagged for a closer look

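Young lean 1 lay far from the 3 other young lean libraries in 2 clock genes. Its Ciart value was 13.6, where the others had 129 to 139, and its Nr1d2 value was 1892, where the others had 2477 to 2570. These were the 2 such cases in 40 sets of 1 gene and 1 group, and chance gives about 1 in 20.

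The diet effect differed between aged and young mice in Arntl, by -1.22 on the log2 scale (SE 0.25, limma adjusted p = 0.0200). It differed in Per3 by 1.50 (SE 0.25, limma adjusted p = 0.00859). Both values are the effect in the aged less the one in the young.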

How the results depend on the processing

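Of 2442 values of single clock genes under the alternatives, 2365 stayed on the same side of the threshold. Another 47 gained a call, 30 lost one and none of the called values reversed. Values that were not called could change sign, as that of Ciart for diet in young mice did (-0.88 to 0.34). Of the gains, 39 came without young lean 1, with library weights or without both young lean 1 and young obese 2. Counts of the 10 genes called, in the order diet in young, diet in aged, age on the lean diet, age on the high-fat diet and interaction, were 3, 0, 2, 2 and 2. With library weights they were 5, 2, 5, 3 and 7, and without both young lean 1 and young obese 2 they were 6, 1, 5, 3 and 8, where 25.6, 1.26, 11.7, 21.2 and 18.7% and 25.4, 0.874, 11.1, 18.9 and 20.1% of all genes were called. With the tendon covariate they were 0, 0, 2, 0 and 0, where 0, 0.456, 3.77, 0.0898 and 0% of all genes were called. With only the groups of a comparison the first 4 were 1, 2, 0 and 2, where 1.30, 1.06, 0.974 and 9.93% of all genes were called. Without both young lean 3 and young obese 3, age on the lean diet and age on the high-fat diet each gave 1, as did age on the high-fat diet with a mean of at least 50, where Npas2 was not tested. Shares over all genes were not worked out under these settings. Leaving out each library gave 2 to 5, 0 to 1, 1 to 5, 1 to 3 and 2 to 7, and 0 to 0 for aged obese against young lean and both averages. The share of all genes called moved between these runs too. For diet in young mice it was 7.15% without young obese 1 and 20.2% without young lean 1. The causes were not tested. No paired analysis was possible because the labels give no replicate numbers shared across groups.

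Precision is limited by 4 to 5 libraries per group.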

Other observations

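The genes most like Arntl across the 19 libraries, with group means removed, were Gulp1 (r = 0.82), Dhx30 (0.76), Wsb1 (0.74), Ankrd33b (0.72) and Dok5 (0.72). The most opposed were Zfp467 (-0.76), Nek6 (-0.74), Arhgap6 (-0.72), Ogfrl1 (-0.71) and Prkrip1 (-0.70). For Dbp, the most like were Anapc2 (0.82), Sugp1 (0.82), Neil1 (0.80), Toe1 (0.78) and Limk2 (0.78), and the most opposed Sdc4 (-0.87), Tmed5 (-0.83), Ggct (-0.82), Wsb1 (-0.79) and Cox20 (-0.78). Wsb1 stood in both lists, among the most like Arntl and the most opposed to Dbp.

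Among other core clock genes, Dbp correlated within groups with Bhlhe40 (r = 0.78) and opposite to Nfil3 (r = -0.74), a bZIP repressor that binds the same D-box elements. Without the 2 libraries farthest out in Dbp these were 0.74 and -0.57. Some other core genes did not follow the 2 arms. Nr1d1 had r = 0.08 with Arntl, 0.14 with Npas2 and -0.27 with Per2, though 0.51 with Nr1d2 and 0.63 with Dbp. Cry1 had r = -0.23 with Dbp and -0.13 with Nr1d2, though -0.24 with Arntl.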
